A study of Mus musculus with 6 samples.

Results

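Peroxiredoxins and the other enzymes that clear superoxide and peroxides were followed in marrow erythroblasts, the immature red cells that still have a nucleus. The cells came from mice with a mutant RPS19 transgene and from wild type mice. Of 10 genes named for this set, 7 had at least 1 probe set annotated to that gene alone, which gave 14 of the 22626 probe sets tested. These 7 are Prdx2, Prdx3, Cat, Gpx1, Sod1, Sod2 and Txnrd1. Prdx1 was named by 5 probe sets only together with the gene Gm21399, so no value was given to it, and Prdx5 and Prdx6 were not analysed here. Probe sets were assigned to the genes by annotation alone, and the genes themselves were named with earlier results of these data known.

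The mutant group held 3 samples of CD71-positive bone marrow erythroblasts from FVB/N mice expressing the RPS19R62W transgene, a small ribosomal subunit protein with the change R62W. The wild type group held 3 samples of the same sorted cells from FVB/N mice. CD71 is the transferrin receptor, and RPS19 is a gene often mutated in Diamond-Blackfan anaemia, the inherited failure of red cell production named in the study's title. Neither the transgene's promoter nor the age of the mice is stated in the labels. Each sample was read on 1 Affymetrix array, and values are on the log2 scale after RMA, so a difference of 1 is a doubling. All 3 wild type descriptions bear a single common tag and the mutant ones bear a tag each. Separate animals are not stated within a group, so a p-value here covers sample-to-sample spread that could be technical. In these bulk samples, fewer cells of a type and less RNA per cell cannot be told apart.

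The mutant arrays differed more among themselves than the wild type arrays did. The SD over genes of the difference between a pair of arrays was 0.34 to 0.51 among mutant arrays and 0.14 to 0.18 among wild type arrays. Spiked polyadenylated controls, which are bacterial RNAs mixed into each sample, read 11.58, 13.43 and 13.47 for mutant samples and 8.74 to 8.77 for wild type samples. The 3' minus 5' value, in which a larger number means less signal from the far end of the transcript, was 1.58 to 1.88 in mutant and 1.26 to 1.37 in wild type samples for actin. For Gapdh it was 0.25 to 0.31 in mutant and -0.087 to -0.049 in wild type samples. Both sets of values were the most separated that 3 arrays against 3 allow (exact permutation p = 0.1, two-sided, the smallest possible). Mutant replicate 3 read 5.78 for Xist and 8.34 for the Y-linked Eif2s3y, against 11.38 to 12.07 and 2.23 to 2.45 on the other 5 arrays. By these genes that sample was male and the other 5 female, so the mutant samples did not all come from the same animal. Of 11 measured erythroblast markers 0 had a wild type mean under 5, and the brightest were Car2 (12.63 in mutant and 13.00 in wild type samples) and Tfrc (11.80 and 12.14). Rps19 itself read 12.08 ± 0.024 in mutant and 12.10 ± 0.032 in wild type samples (SD, n = 3 each), and no source used here says if its probe set also reads the transgene.

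Red cells carry haem iron and oxygen at high concentration, which steadily yields superoxide. Superoxide dismutases turn it into hydrogen peroxide, and catalase, glutathione peroxidase and peroxiredoxins break the peroxide down. Peroxiredoxins use a reactive cysteine that is reduced again by thioredoxin, and thioredoxin reductase restores thioredoxin with electrons from NADPH. In mice, loss of Prdx2 is known to cause haemolytic anaemia. Several genes of this defence are induced by the transcription factor NRF2 through antioxidant response elements.

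Promoter sequence was searched for the core of that element because Txnrd1, a thioredoxin reductase gene, is known as an NRF2 target in other cells. A dimmer probe set of Txnrd1 was called in the comparison below, while its brightest probe set was not. RefSeq's promoter table (GRCm38.p6) held 9 windows for the 7 measured genes, of which Txnrd1 had 3. The motif TGACNNNGC, sought on both strands in the 250 bases before each start, lay in 2 of these 9 windows, 1 of Txnrd1 and 1 of Sod1. It lay in 10.2% of all 32851 windows in the table. Both matches run on the strand opposite to the gene, so that the capitals mark its reverse complement, within a stretch of 89 bases from the + strand. The Txnrd1 stretch is chr10:82859074-82859162, with the first capital 92 bases before the start. The Sod1 stretch is chr16:90220666-90220754, with the first capital 56 bases before the start. A match describes the letters only.
Txnrd1: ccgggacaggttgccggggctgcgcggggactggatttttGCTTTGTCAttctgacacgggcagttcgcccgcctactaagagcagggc
Sod1: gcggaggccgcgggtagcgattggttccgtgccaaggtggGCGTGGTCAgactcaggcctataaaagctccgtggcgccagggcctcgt

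Across the 14 probe sets, 1 passed the test, a Txnrd1 probe set that fell in the mutant. The background in the same limma fit was 2.33% of 22626 probe sets (528), called at an adjusted p under 0.05, and 1.39% lower in the mutant. With 1 probe set called, no excess over that background is read for the set. In 7 of the 14 the mutant mean was the higher, and the median difference was 0.03 (mutant minus wild type, log2) against -0.01 over all probe sets. At an unadjusted p under 0.05 there were 9 of the 14, 4 with the higher mean in mutant and 5 with the lower, where all probe sets gave 19.1%. The groups did not overlap for 8 of the 14, 4 in each direction, where all probe sets gave 26.1%. Probe sets of 1 gene read related transcripts and are not independent of each other. Taking for each gene its probe set with the highest mean, 0 of the 7 genes were called by limma (3 at an unadjusted p under 0.05), against 1.52% of 12393 genes called and 17.5% at that unadjusted p.

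**Figure D1:**
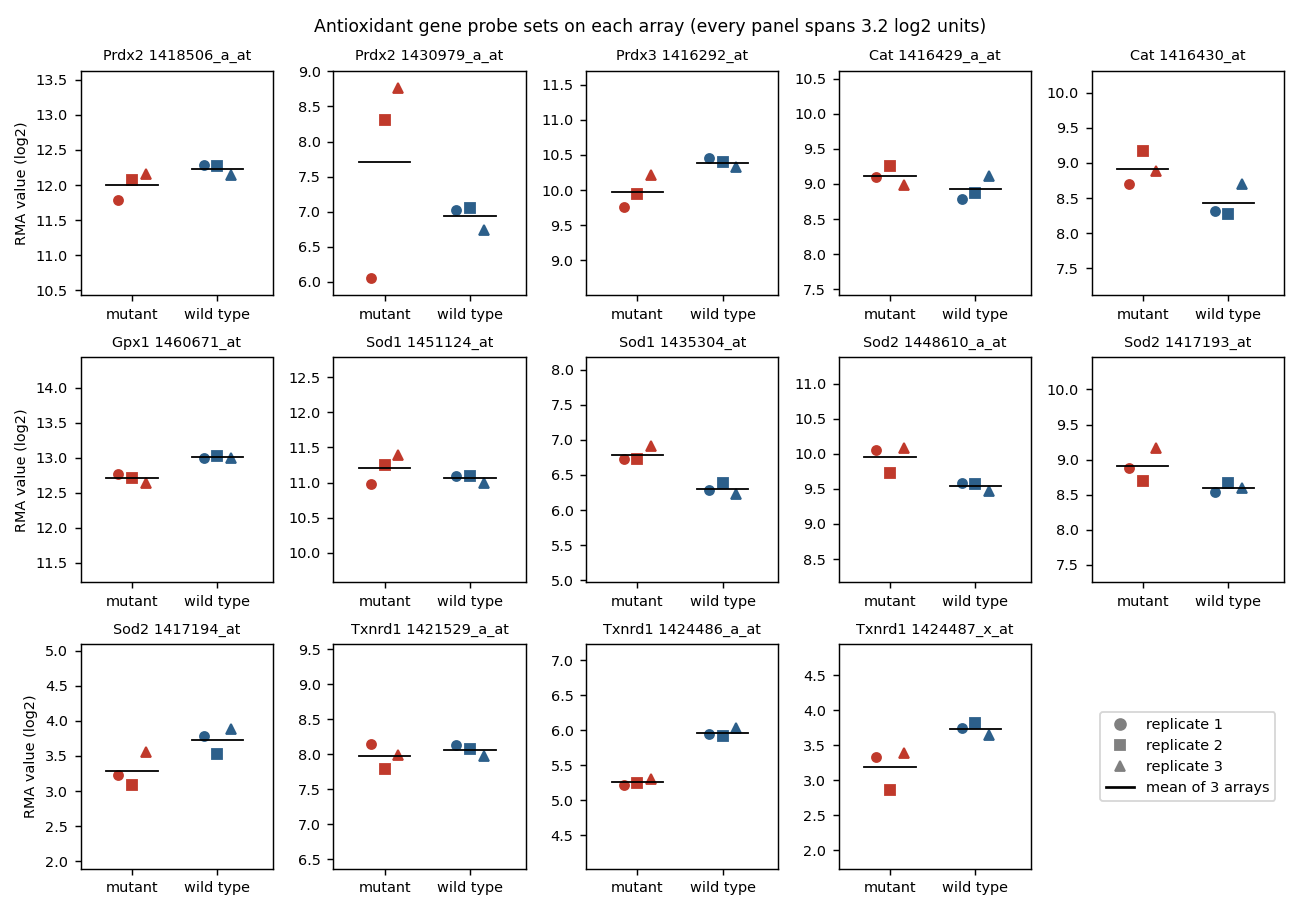
Values (log2, RMA) of the 14 antioxidant probe sets on each array, mutant in red at the left of each panel and wild type in blue at the right, with a bar at the mean of 3 arrays and every panel spanning the same number of log2 units. The Txnrd1 probe set 1424486_a_at reads 5.22 to 5.31 in mutant and 5.92 to 6.03 in wild type samples, and the Prdx2 probe set 1430979_a_at spreads from 6.06 to 8.76 over the mutant arrays.

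Txnrd1 encodes the cytosolic thioredoxin reductase, a selenoprotein. Its probe set 1424486_a_at read 5.22, 5.25 and 5.31 in mutant samples and 5.95, 5.92 and 6.03 in wild type samples. Every mutant array lay below every wild type array, and the SD was 0.046 in mutant and 0.061 in wild type samples. The level was low: all 3 mutant values lay below the median of their own array (5.36, 5.40 and 5.34). RMA values give no detection call. The difference of -0.71 ± 0.089 (log2, SE, n = 3 each) is 1.64-fold lower in the mutant (adjusted p = 0.015, limma). The call was lost without wild type replicate 1, 2 or 3 (adjusted p = 0.12, 0.11 or 0.10, limma). The difference was then -0.72, -0.74 or -0.68. In the same 3 fits the calls over all probe sets fell from 528 to 39, 36 and 48. This probe set passed in 10 of 14 other settings, and over these the adjusted p was up to 0.122 (limma). The call held without mutant replicate 1, 2 or 3 (adjusted p = 0.0068, 0.047 or 0.020, limma).

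The other Txnrd1 probe sets did not pass, and they differed from each other. The brightest, 1421529_a_at, read 8.15, 7.79 and 7.99 in mutant samples and 8.13, 8.08 and 7.97 in wild type samples. These groups overlap, and they differed by -0.08, with -0.36 to 0.19 as the 95% confidence interval (adjusted p = 0.75, limma). The dimmest, 1424487_x_at, read 3.34, 2.86 and 3.38 in mutant samples and 3.75, 3.82 and 3.64 in wild type samples. Its difference was -0.54 ± 0.15, with -0.90 to -0.18 as the 95% confidence interval. It did not pass (adjusted p = 0.12, unadjusted p = 0.0086, limma), although its groups did not overlap and its mean was also lower in the mutant. The suffix x marks, in the maker's naming, probes that can also match other sequences. No source used here says which Txnrd1 transcripts each probe set reads. Both the 3' minus 5' values of actin and Gapdh and the spiked controls were higher on every mutant array, and the mean level of 13 monocyte and macrophage markers was lower there (5.52 to 5.97 in mutant and 6.08 to 6.16 in wild type samples). All 13 of these markers had the lower mean in the mutant and 0 were called (2 at an unadjusted p under 0.05), with Csf1r (9.70 in mutant and 9.99 in wild type samples) and Ly86 (8.47 and 8.78) the brightest and 3 of the 13 under 5 in wild type. The mean of 7 megakaryocyte markers was higher on every mutant array (5.52 to 5.92 in mutant and 5.20 to 5.21 in wild type samples), with 4 of the 7 under 5 in wild type. Of these markers Vwf was called (difference 1.48, adjusted p = 0.015, limma), while the brightest, Pf4 and Gp9, were not (adjusted p = 0.57 and 0.61). Their part in the Txnrd1 difference was not tested.

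**Figure D2:**
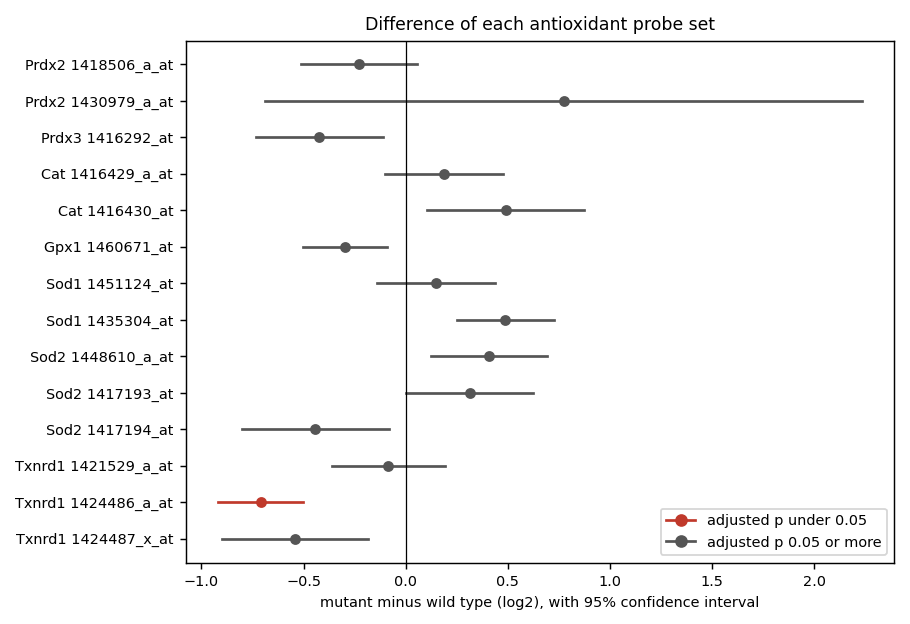
Difference of each antioxidant probe set, mutant minus wild type on the log2 scale, as a point with its 95% confidence interval from limma. The Txnrd1 probe set 1424486_a_at, in red at -0.71, is the 1 of 14 that passed, and the interval of Prdx2 1430979_a_at runs from -0.69 to 2.23.

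Prdx2 is the main peroxiredoxin of red cells. Its brighter probe set, 1418506_a_at, read 11.78, 12.07 and 12.15 in mutant samples and 12.28, 12.27 and 12.14 in wild type samples. Mutant replicate 1 was the lowest array and the groups overlap. They differed by -0.23, with -0.51 to 0.06 as the 95% confidence interval (adjusted p = 0.37, limma), and by -0.12 when the quantile normalisation was repeated without control probe sets.

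The dimmer Prdx2 probe set, 1430979_a_at, read 6.06, 8.31 and 8.76 in mutant samples and 7.02, 7.05 and 6.74 in wild type samples. Mutant replicate 1 lay below all wild type arrays and the other mutant arrays lay above all of them. The mutant SD of 1.45 was the largest of the 14 probe sets, against 0.17 in wild type samples. The means differed by 0.77, with -0.69 to 2.23 as the 95% confidence interval (adjusted p = 0.57, limma). Without mutant replicate 1 it was 1.60 (adjusted p = 0.0034). Leaving out mutant replicate 2 gave 0.48 and leaving out mutant replicate 3 gave 0.25, and neither passed (adjusted p = 0.79 and 0.83).

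Array-level values also differed among the mutant samples. The mean of 11 erythroblast markers read 10.10, 10.74 and 10.95 in mutant samples and 10.81 to 10.90 in wild type samples. The mean of 12 neutrophil markers read 10.76, 9.50 and 9.03 in mutant samples and 9.96 to 10.07 in wild type samples. In the neutrophil list the brightest were Mpo, at 12.90 in mutant and 13.12 in wild type samples, and Ctsg, at 11.83 and 12.17, so these libraries held neutrophil transcripts at a high level in both groups. RMA values have no zero, and 1 of the 12 neutrophil markers had a wild type mean under 5. The mean of 10 B cell markers read 5.90, 7.74 and 6.65 in mutant samples and 5.88 to 5.92 in wild type samples, with Vpreb1 (8.20 in mutant and 7.27 in wild type samples) and Igll1 (7.94 and 7.15) the brightest and 3 of the 10 under 5 in wild type. Of these 3 lists 0 genes were called (3 erythroblast, 0 neutrophil and 4 B cell markers at an unadjusted p under 0.05, limma). The mean of 6 eosinophil, basophil and mast cell markers read 8.07, 6.27 and 5.23 in mutant samples and 6.53 to 6.74 in wild type samples. Its mutant SD of 1.44 was the largest of the marker lists, and 0 of its genes were called. The brightest were Mcpt8 (8.51 in mutant and 8.64 in wild type samples) and Prg2 (8.21 and 7.80). The mean of the T and NK cell markers (4.96 to 5.36 in mutant and 5.17 to 5.22 in wild type samples) overlapped between the groups. The part of these lists in the Prdx2 values was not tested.

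**Figure D3:**
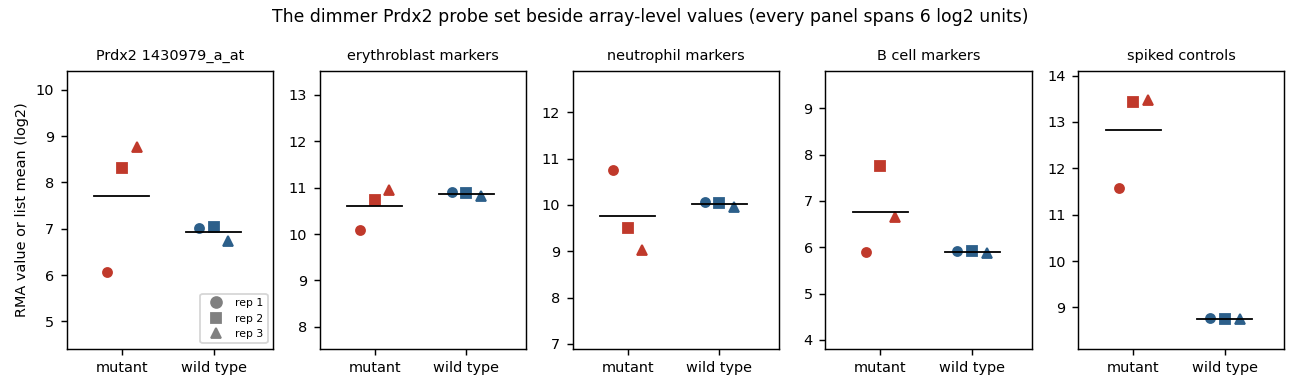
The dimmer Prdx2 probe set beside the mean log2 level of the erythroblast, neutrophil and B cell marker lists and of the spiked controls on each array, mutant in red at the left and wild type in blue at the right, with a bar at the mean. Mutant replicate 1 (circle) is the lowest mutant array for Prdx2 (6.06), the erythroblast markers (10.10) and the spiked controls (11.58), and the highest for the neutrophil markers (10.76).

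Prdx3 is a mitochondrial peroxiredoxin. It read 9.75, 9.94 and 10.21 in mutant samples and 10.45, 10.40 and 10.33 in wild type samples. Every mutant array lay below every wild type array, with mutant replicate 1 the lowest. The difference of -0.42 ± 0.13 (log2, SE, n = 3 each) did not pass (adjusted p = 0.15, limma). Without mutant replicate 3 it was -0.54 (adjusted p = 0.0496). Prdx3 passed in 2 of 14 other settings, and over these the adjusted p was up to 0.405 (limma).

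Gpx1, a selenoenzyme, is the main glutathione peroxidase of red cells. It read 12.77, 12.71 and 12.64 in mutant samples and 13.00, 13.02 and 13.00 in wild type samples. The groups did not overlap, and the wild type SD of 0.012 was the smallest among the 14 probe sets. The difference of -0.30 ± 0.088 did not pass (95% confidence interval -0.50 to -0.09, adjusted p = 0.13, limma). It was -0.15 (adjusted p = 0.40) when the quantile normalisation was repeated without control probe sets.

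Cat encodes catalase, and both of its probe sets had the higher mean in mutant samples. The probe set 1416430_at read 8.70, 9.17 and 8.89 in mutant samples and 8.32, 8.27 and 8.70 in wild type samples. Mutant replicate 1 and wild type replicate 3 lay almost level, so the groups met without overlapping. The difference was 0.49 ± 0.16 (adjusted p = 0.17, limma). The brighter probe set, 1416429_a_at, read 9.10, 9.25 and 8.98 in mutant samples and 8.78, 8.88 and 9.11 in wild type samples, with a difference of 0.19 (95% confidence interval -0.10 to 0.48, adjusted p = 0.47, limma). These groups overlap.

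Sod1 is the copper and zinc superoxide dismutase of the cytosol. Its dimmer probe set, 1435304_at, read 6.72, 6.73 and 6.92 in mutant samples and 6.29, 6.38 and 6.23 in wild type samples. The groups did not overlap, and the difference of 0.49 ± 0.10 came nearest to the threshold among the 13 probe sets that did not pass (adjusted p = 0.057, limma). It passed at 0.49 (adjusted p = 0.044) when dim probe sets were left out of the fit. Without mutant replicate 1 it passed at 0.52 (adjusted p = 0.023). In all it passed in 3 of 14 other settings. It did not pass without mutant replicate 2 (adjusted p = 0.11) or without wild type replicate 1, 2 or 3 (0.25, 0.23 and 0.22, limma). With the replicate number as a block the adjusted p was 0.15 (limma). The brighter probe set, 1451124_at, read 10.98, 11.26 and 11.39 in mutant samples and 11.09, 11.09 and 10.99 in wild type samples. These groups overlap, with mutant replicate 1 the lowest array, and the means differed by 0.15 (-0.14 to 0.44 as the 95% confidence interval, adjusted p = 0.58, limma). That difference was 0.26 without mutant replicate 1 and 0.06 without mutant replicate 3, and 0.25 when the quantile normalisation was repeated without controls.

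Sod2 is the manganese superoxide dismutase of mitochondria. Its brightest probe set, 1448610_a_at, read 10.05, 9.72 and 10.08 in mutant samples and 9.58, 9.57 and 9.47 in wild type samples. Every mutant array lay above every wild type array, and the difference of 0.41 ± 0.12 did not pass (adjusted p = 0.13, limma). The probe set 1417193_at read 8.88, 8.70 and 9.17 in mutant samples and 8.54, 8.66 and 8.60 in wild type samples, without overlap (difference 0.31, adjusted p = 0.26, limma). The third, 1417194_at, read 3.22, 3.09 and 3.56 in mutant samples and 3.78, 3.53 and 3.89 in wild type samples, a difference of the other sign (-0.44, adjusted p = 0.18, limma). That probe set was among the 2 of the 14 with a wild type mean under 5, the other being the dimmest of Txnrd1. Of the 5 genes with several probe sets, 2 (Prdx2 and Sod2) had differences of both signs.

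The rest of the redox network was read from 11 lists of 98 genes, of which 90 were measured. By the brightest probe set of each gene, 2 rose (Gstt1 and Gstt2), 1 fell (Fth1) and 87 did not pass, where 1.52% of all 12393 genes were called. The median difference over the 90 was 0.03, against -0.0044 over all genes. The lists were chosen with earlier results of these data known.

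Among 14 glutathione S-transferases, which join glutathione to reactive compounds, 2 rose, 0 fell and the median was 0.05. Gstt2 read 6.31, 6.41 and 6.09 in mutant samples and 5.57, 5.48 and 5.33 in wild type samples. Its groups did not overlap, and the difference was 0.81 ± 0.12 (adjusted p = 0.025, limma). Gstt1 read 5.93, 6.43 and 6.61 in mutant samples and 5.32, 5.42 and 5.44 in wild type samples, and differed by 0.93 ± 0.18 (adjusted p = 0.044, limma). Both belong to the theta class. Their wild type values lay near the medians of the wild type arrays (5.37, 5.37 and 5.35), and RMA values give no detection call. The calls of Gstt1, Gstt2 and Fth1 were all lost without wild type replicate 1, 2 or 3 and without mutant replicate 2 (adjusted p up to 0.21, 0.16 and 0.24), and that of Gstt1 also without mutant replicate 3 (0.051) and when the quantile normalisation was repeated without controls (0.055). With no shared variance estimate the adjusted p was 0.17 for Gstt1, 0.0997 for Gstt2 and 0.14 for Fth1, so that all 3 calls were lost.

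Among 9 NRF2 targets outside the set, Fth1, the ferritin heavy chain, fell and 8 did not pass (median -0.05). At an unadjusted p under 0.05 there were 3, all lower in the mutant without overlap. Over all 12393 genes, 17.5% had such a p and 1575 were lower in the mutant without overlap. In this list 6 genes had the lower mean and 3 the higher, so no fall of the whole list is read. Fth1 read 12.04, 12.30 and 12.42 in mutant samples and 12.93, 12.93 and 12.80 in wild type samples. Its difference was -0.63 ± 0.12 (adjusted p = 0.048, limma), and -0.49 with a lost call (adjusted p = 0.12) when the quantile normalisation was repeated without controls. Fth1 is also known to be regulated by iron. The others at that unadjusted p, named after their values were seen, were the haem breakdown genes Blvrb (-0.68 ± 0.22, adjusted p = 0.16) and Hmox1 (-0.30 ± 0.094, adjusted p = 0.14, limma). Among 12 regulators of NRF2 and FOXO, 0 were called (3 at an unadjusted p under 0.05, median 0.06). Keap1, which targets NRF2 for degradation, differed by 0.37 ± 0.098 (adjusted p = 0.098) and Foxo1 by 0.46 ± 0.15 (adjusted p = 0.17, limma).

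No gene passed in the peroxiredoxin list or in the thioredoxin and glutaredoxin list, from which the members, Txnrd1 among them, were left out. In the peroxiredoxin list, with 5 of 5 genes measured, 0 were called (1 at an unadjusted p under 0.05, median -0.12). Srxn1, sulfiredoxin, which repairs over-oxidised peroxiredoxin, read 4.42, 4.91 and 5.28 in mutant samples and 5.51, 5.47 and 5.43 in wild type samples. All 3 mutant arrays lay below the wild type arrays (difference -0.60 ± 0.20, adjusted p = 0.17, limma). The mutant Srxn1 values were also below the median of their own array (5.36, 5.40 and 5.34). Prdx4, the peroxiredoxin of the endoplasmic reticulum, differed by -0.13 ± 0.088. Of 10 measured thioredoxin and glutaredoxin genes 0 were called (2 at an unadjusted p under 0.05, median 0.16). Txnrd3, the reductase best known from testis, read 6.50, 6.22 and 6.87 in mutant samples and 5.81, 5.70 and 5.58 in wild type samples, a difference of 0.84 ± 0.17 without overlap (adjusted p = 0.053, limma). Glrx2, a mitochondrial glutaredoxin, differed by 0.37 ± 0.14.

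The lists of glutathione peroxidases, glutathione synthesis, NADPH supply and selenoprotein synthesis held no called gene by limma. Among 7 glutathione peroxidases, with 2 at an unadjusted p under 0.05 and a median of 0.13, Gpx4, which reduces lipid peroxides, differed by 0.39 ± 0.095 (adjusted p = 0.082). Gpx7 differed by 0.67 ± 0.18 (adjusted p = 0.099) from a dim probe set that read 4.31 to 4.60 in mutant and 3.42 to 4.09 in wild type samples. Gpx1 itself, a member of the set, had the lower mean in the mutant. Among 10 genes of glutathione synthesis and recycling the count at that unadjusted p was 0 (median 0.04), with Ggct at 0.28 ± 0.13 and Oplah at 0.21 ± 0.11. The Oplah probe set was also dim, with means of 3.81 in mutant and 3.60 in wild type samples. Of 8 NADPH supply genes 1 had such a p (median -0.0031), which was Pgls of the pentose phosphate pathway, at 0.46 ± 0.14, while Me1 was at -0.23 ± 0.14. Of 8 selenoprotein synthesis genes 0 had such a p (median 0.07), with Secisbp2l at -0.17 ± 0.19 and Pstk at 0.08 ± 0.095.

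The dismutase partners and methionine sulfoxide reductases were small lists, also with 0 called. Of 4 dismutase partners 2 had an unadjusted p under 0.05 (median 0.05). Atox1, a copper chaperone, was at -0.27 ± 0.093 and Sod3, the extracellular dismutase, at 0.30 ± 0.12. The Sod3 probe set was dim, with means of 4.04 in mutant and 3.74 in wild type samples. Of 3 measured methionine sulfoxide reductases 1 had such a p (median -0.18), with Msrb1, a selenoprotein, at -0.39 ± 0.16 and Msra at 0.39 ± 0.21.

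**Figure D4:**
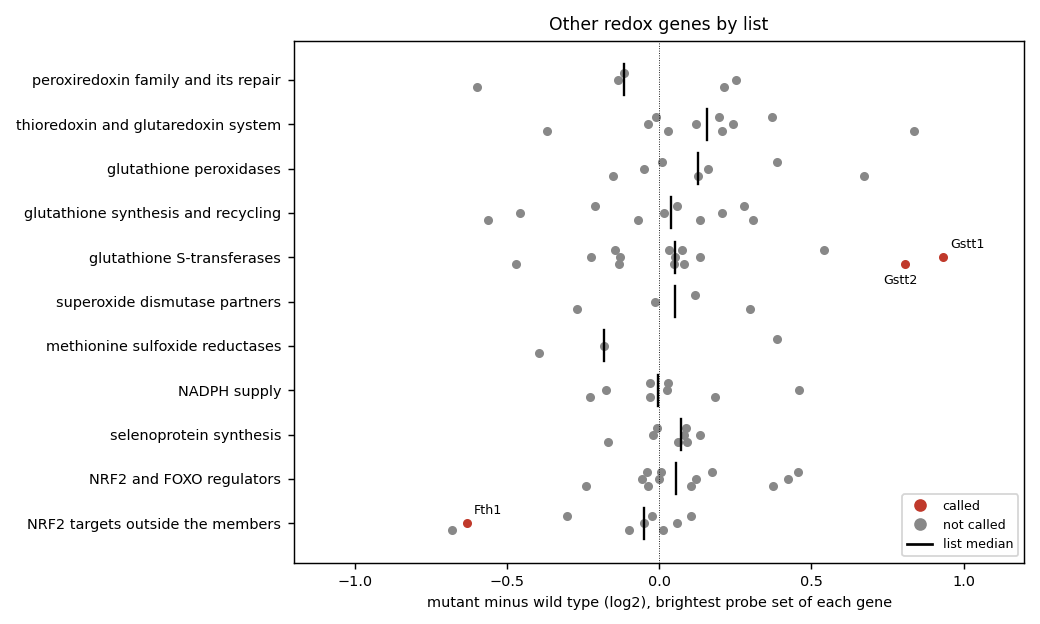
Difference of each measured gene in 11 redox lists, mutant minus wild type on the log2 scale by the brightest probe set, with a black line at the list's median and called genes in red. The called genes are Gstt1 (0.93), Gstt2 (0.81) and Fth1 (-0.63), the differences of all 90 genes run from -0.68 to 0.93, and the list medians run from -0.18 to 0.16.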

How the data were processed

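Total RNA of 6 samples was hybridised to 1 Affymetrix array each. The deposited table holds log2 values made by the authors with GCOS and with RMA in Affymetrix Expression Console, per the submitters' processing notes, which name no versions. RMA removes background, equalises the distributions of the arrays and combines the probes of a probe set, so that the arrays depend on each other. Of 22690 probe sets, 64 controls were left out. Platform annotation named 1 gene for 20380 of the rest, several for 691 and none for 1555. The mutant minus wild type difference was fitted by limma 3.58.1 (R 4.3.3; lmFit, then eBayes; two-sided; no covariates). P-values were adjusted by Benjamini-Hochberg over all 22626 probe sets, with calls below an adjusted p of 0.05. The fit was tested on simulated data with the same spread in both groups. The mutant arrays here spread more, so that test does not cover the unequal spread. Single values per array used an exact permutation test. All probe sets of the members were named. From each pathway list up to 5 called genes, or else the 2 of lowest p, were named, and from marker lists the 2 brightest in wild type. The members and lists were chosen with earlier results of these data known. Other settings covered the variance prior, array weights, normalisation, a dim filter (mean under 5), the replicate block, the threshold, the probe set choice and the loss of each array. The number of arrays limits the precision. Figures were drawn with matplotlib 3.10.9 in Python 3.11.15.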

Additional observations from a re-analysis of the deposited data

Results flagged for a closer look

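Control probe sets lie outside the gene comparison and read higher on the mutant arrays. The spiked polyadenylated controls averaged 12.83 ± 1.08 in mutant and 8.75 ± 0.016 in wild type samples (SD, n = 3 each). They differed by 4.07 on the log2 scale (exact permutation p = 0.1, the smallest possible). The hybridization controls, added to the labelled material, averaged 10.47 ± 0.22 in mutant and 9.36 ± 0.066 in wild type samples and differed by 1.11 (exact permutation p = 0.1).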

How the results depend on the processing

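The 14 member probe sets kept their sign under every setting that tested them (the dim filter left out 2), except Txnrd1 1421529_a_at, which turned to 0.0092 without mutant replicate 2 (-0.17 without mutant replicate 1). In all, 528 probe sets, 1 member probe set, 0 member genes and 3 pathway genes were called, and the cause of each shift that follows was not tested. At an adjusted p under 0.10 these counts were 1386, 2, 0 and 7. With no shared variance they were 81, 1, 0 and 0. With array weights they were 2667, 5 (both dimmer Txnrd1 probe sets, Prdx3, Cat 1416430_at and Sod1 1435304_at), 1 (Prdx3) and 11. Quantile normalisation redone without controls left 1 pathway gene, and the dim filter gave 2 member probe sets. Fitting over genes only left 0 pathway genes, and 1 when a gene's probe sets were averaged. With the replicate number as a block the counts were 112, 0, 0 and 0, and Txnrd1 1424486_a_at had an adjusted p of 0.064. Samples of equal number share only a number: their deviations correlated at 0.028 to 0.056, and those of unequal number at -0.078 to 0.023. Each sample correlated best with its own number, but the values are small and no pairing is read from them. Leaving out 1 array gave 36 to 2544 probe sets, 0 to 4 member probe sets, 0 to 1 member genes and 0 to 10 pathway genes, the highest without mutant replicate 1 except for member genes (mutant replicate 3). Without wild type replicate 1, 2 or 3 the probe set counts were 39, 36 and 48. Secisbp2l turned to 0.021 with array weights and ran from -0.335 to 0.053 when 1 array was left out. The pathway settings were chosen after seeing the data. RMA values give no detection call, and 2 member probe sets had a wild type mean under 5.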

Other observations

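The 5 probe sets annotated to Prdx1 together with Gm21399 cannot be given to either gene, and 0 of them were called by limma (1 at an unadjusted p under 0.05). The probe set 1416000_a_at read 10.53, 10.43 and 10.50 in mutant samples and 10.79, 10.84 and 10.73 in wild type samples, without overlap and with a difference of -0.30 (adjusted p = 0.13). The other 4 had overlapping groups and differences of -0.15 to 0.04. Prdx1 is a cytosolic peroxiredoxin known as an NRF2 target.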
